A study of Homo sapiens with 4 samples.

Results

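The very long chain fatty acid elongases are the enzymes that lengthen fatty acids in the endoplasmic reticulum. The 9 genes described here were chosen by symbol: ELOVL1 to ELOVL7, which encode the 7 elongases, and HSD17B12 and TECR, which encode enzymes that all elongases share. All 9 were found among the 25343 gene symbols of each deposited table. The data came from 4 RNA-seq libraries of human hepatocellular carcinoma lines, with 1 library per group. The groups were Huh7 with a non-target control vector, Huh7 with a hairpin RNA that silences SCD1 (the gene SCD), PLC/PRF/5 with the control vector, and PLC/PRF/5 with the SCD1 hairpin. All 4 cultures carried a lentiviral vector, had been selected with puromycin and were grown in the same serum-supplemented medium. A single hairpin is named in the labels, and they do not say whether the transduced cells were pools or clones. Levels are given in TPM, the abundance of a gene's transcripts per unit of length, scaled to the same total in each library, so levels of different genes in a library can be compared. The sequencing depth of the libraries is unknown, since TPM does not keep it. Wherever a gene is given as one level against another, the control library comes first and the knockdown library of the same line follows.

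An elongase joins malonyl-CoA to an activated fatty acid and so sets which acids are lengthened. The product then passes through a reduction by HSD17B12, a dehydration by one of the HACD proteins and a further reduction by TECR, which complete the cycle whatever the elongase. ELOVL6 makes stearoyl-CoA from palmitoyl-CoA, and stearoyl-CoA is the main substrate that SCD desaturates to oleoyl-CoA. ELOVL1, ELOVL3 and ELOVL7 act mainly on saturated and monounsaturated acids, ELOVL2 and ELOVL5 on polyunsaturated acids, and ELOVL4 on very long chains of retina, skin and brain. In liver, ELOVL2, ELOVL5 and ELOVL6 are known as abundant members.

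The targeted gene was lower in both knockdown libraries. SCD stood at 1755 against 137 TPM in Huh7 and at 1111 against 178 TPM in PLC/PRF/5. Its log2 fold changes were -3.67 and -2.64, with a mean of -3.15 (standard error 0.25) that did not pass the adjusted threshold in limma, the linear model fitted across all genes (adjusted p = 0.128), so the fit does not call even the silenced gene. Its paralog SCD5 was at 3.51 against 2.86 TPM in Huh7 and at 3.71 against 5.28 TPM in PLC/PRF/5. The 9 hepatocyte and hepatoma markers examined were above 0 in all 4 libraries. Their summed level was 30336 against 27497 TPM in Huh7 and 4905 against 3315 TPM in PLC/PRF/5. In Huh7, ALB was at 6498 against 10479 TPM and AFP at 15421 against 10302 TPM. In PLC/PRF/5, ALB was at 69.32 against 41.45 TPM, AFP at 17.23 against 6.96 TPM and TTR at 0.41 against 0.16 TPM. Of these 9 markers 6 were lower in the knockdown of each line, and 3 were past 2-fold lower in PLC/PRF/5. In limma 0 of the 9 passed for the knockdown, where 1 of 13813 genes did. An unadjusted p under 0.05 was found for 5, all lower, where 18.0% of all genes were under it. The 5 fibroblast markers summed to 45.0 against 17.5 TPM in Huh7 and to 3.41 against 1.73 TPM in PLC/PRF/5. The 4 endothelial markers summed to between 1.5 and 3.4 TPM, with KDR listed at 0 throughout, and the 5 leukocyte markers to between 11.7 and 27.4 TPM. The part of these differences in the results on elongases was not tested.

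Elongase levels formed a high and a low class in every library. TECR was the most abundant of the 9 genes in each, at 219.9 to 270.1 TPM. HSD17B12, ELOVL5, ELOVL1 and ELOVL2 followed, all between 106 and 208 TPM. ELOVL6 lay between the classes at 20.8 to 54.6 TPM, and ELOVL7, ELOVL4 and ELOVL3 were all under 20 TPM. In the Huh7 control the order was TECR, HSD17B12, ELOVL5, ELOVL1, ELOVL2, ELOVL6, ELOVL4, ELOVL7 and ELOVL3. In the PLC/PRF/5 control ELOVL2 stood just above ELOVL1, and the low class ran from ELOVL7 through ELOVL3 to ELOVL4. With 1 library per group there is no spread against which neighbours in these orders could be told apart. Of the 13813 genes with at least 1 TPM in at least 2 libraries, 95.8% were below TECR in the Huh7 control library, and 10.7% were below ELOVL3.

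**Figure D1:**
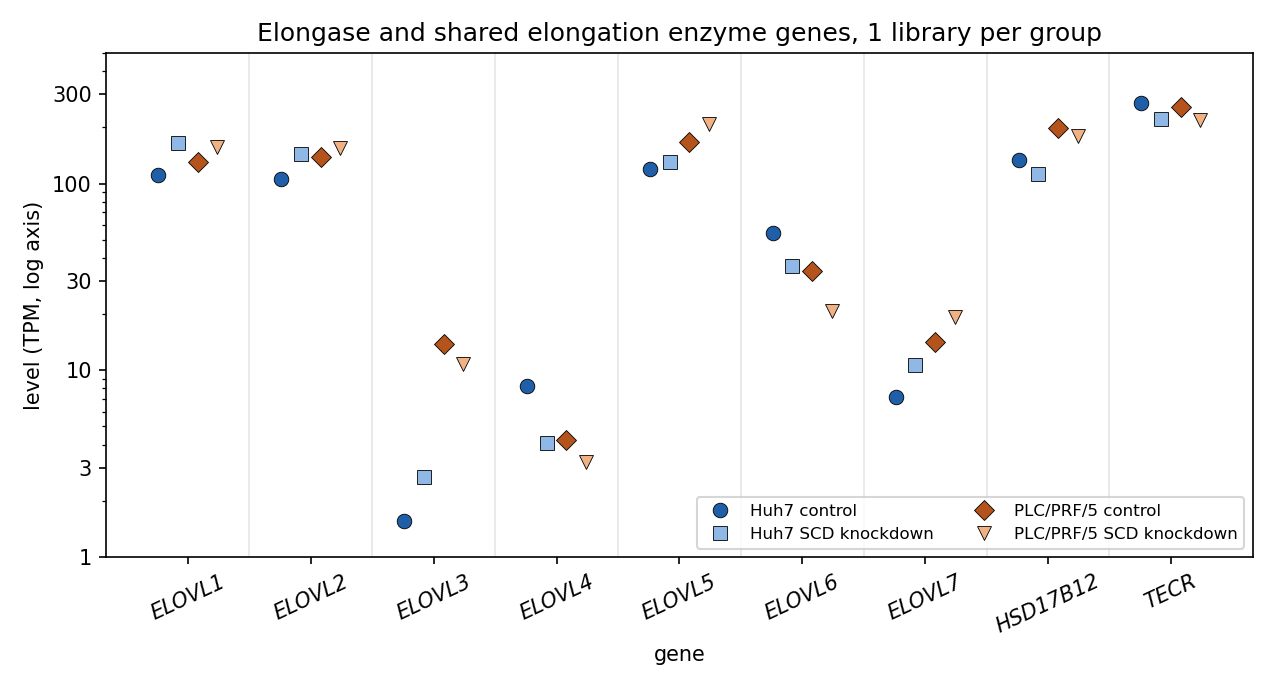
Level of the 9 genes in each of the 4 libraries, in TPM on a log axis; each point is 1 library. TECR is the highest in every library, ELOVL6 is lower in the knockdown than in the control of both lines, and ELOVL3 is far higher in PLC/PRF/5 (10.8 and 13.8 TPM) than in Huh7 (1.55 and 2.68 TPM).

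The first comparison asked how these genes differed between SCD knockdown and control in each line. ELOVL6, ELOVL4, HSD17B12 and TECR had lower levels under knockdown in each line, and ELOVL1, ELOVL2, ELOVL5 and ELOVL7 had higher levels in each. ELOVL3 had a higher level in the Huh7 knockdown but a lower one in that of PLC/PRF/5. Thus 8 of the 9 genes had the same sign in both lines, where 66.0% of all genes of the fit did. No member differed 2-fold on the log2(TPM + 1) scale in Huh7, where 4.63% of 13485 genes did, nor in PLC/PRF/5, where 2.84% of 13057 genes did. In bulk RNA, a lower level in every cell and fewer cells with the transcript cannot be told apart.

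ELOVL6, the enzyme one step upstream of SCD, stood at 54.6 against 36.2 TPM in Huh7 and at 34.2 against 20.8 TPM in PLC/PRF/5. Both knockdown libraries lay below their own control, although the Huh7 knockdown level was above the PLC/PRF/5 control level, so the arms overlapped across lines. The level was lower by 33.7% in Huh7 and by 39.2% in PLC/PRF/5. The log2 fold changes were -0.58 and -0.69, and they lay closer to each other than those of ELOVL1, ELOVL2, ELOVL3, ELOVL4 and ELOVL5 did. Those of ELOVL7 and TECR lay closer still. The mean for ELOVL6 in limma, with cell line as a block, was -0.64 with a standard error of 0.11. It did not pass the adjusted threshold (adjusted p = 0.157 over 13813 genes). The ratio of SCD to ELOVL6 levels was 32.1 and 32.5 in the control libraries of Huh7 and PLC/PRF/5, and 3.78 and 8.55 in the knockdown libraries.

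ELOVL4, which extends very long chains, was at 8.22 against 4.06 TPM in Huh7 and at 4.25 against 3.21 TPM in PLC/PRF/5. The Huh7 control stood apart from the other 3 libraries, which lay within 3.21 to 4.25 TPM. Its log2 fold changes were -0.87 and -0.32. The ratio of levels in Huh7 was 2.02-fold, which falls under 2-fold once 1 TPM is added to both values, and the mean of the lines did not pass in limma (adjusted p = 0.266).

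The higher members included the elongase of saturated and monounsaturated very long chains, ELOVL1. It was at 111 against 164 TPM in Huh7 and at 131 against 157 TPM in PLC/PRF/5. Both knockdown libraries lay above both controls. ELOVL7, which takes saturated and monounsaturated acids, was at 7.16 against 10.7 TPM in Huh7 and at 14.2 against 19.2 TPM in PLC/PRF/5, a level 49.0% and 35.4% above the control. For ELOVL7 both PLC/PRF/5 libraries were above both Huh7 libraries. In limma the mean log2 fold changes were 0.41 for ELOVL1 (adjusted p = 0.204) and 0.46 for ELOVL7 (adjusted p = 0.233).

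The polyunsaturated acid elongases were also higher in both knockdown libraries. ELOVL2, needed for the longest omega-3 acids, was at 106 against 144 TPM in Huh7 and at 139 against 155 TPM in PLC/PRF/5. Its 2 knockdown libraries were the highest, with the Huh7 knockdown only slightly above the PLC/PRF/5 control. ELOVL5, which acts after FADS2 on essential fatty acids, was at 120.1 against 131 TPM in Huh7 and at 167 against 208 TPM in PLC/PRF/5. ELOVL5 was higher in both PLC/PRF/5 libraries than in either Huh7 library. The log2 fold changes were 0.43 and 0.16 for ELOVL2 and 0.12 and 0.31 for ELOVL5, with adjusted p = 0.262 and 0.310 for their means in limma. When each library was rescaled by its median ratio to the others, the smaller of these values became 0.05 for ELOVL2 in PLC/PRF/5 and 0.04 for ELOVL5 in Huh7.

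ELOVL3, an elongase known from skin glands and brown fat, was at 1.55 against 2.68 TPM in Huh7 and at 13.8 against 10.8 TPM in PLC/PRF/5. Its log2 fold changes were 0.53 and -0.33, and the design allows no test of the difference between lines. Averaged over the lines it was 0.10 (standard error 0.26, adjusted p = 0.862 in limma), and it became -0.01 with a pseudocount of 5 TPM.

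The shared enzymes of the cycle were lower by small amounts. HSD17B12, the ketoacyl-CoA reductase, was at 134 against 112 TPM in Huh7 and at 198 against 179 TPM in PLC/PRF/5. TECR, the enoyl-CoA reductase, was at 270.1 against 220.4 TPM in Huh7 and at 256 against 219.9 TPM in PLC/PRF/5. For TECR both control libraries lay above both knockdown libraries, whereas for HSD17B12 both PLC/PRF/5 libraries lay above both Huh7 libraries. The mean log2 fold changes were -0.20 for HSD17B12 (adjusted p = 0.318) and -0.26 for TECR (adjusted p = 0.233) in limma. Both values may carry an uncertainty of assignment, which depends on the unstated annotation of the deposited values. In the GENCODE 29 transcripts 37.6% of the 31-base words of the longest TECR transcript also occur in another gene, mostly its pseudogenes TECRP1 and TECRP2, and 27.6% of those of HSD17B12, mostly in overlapping noncoding genes. The share was 2.66% for ELOVL6, 4.30% for ELOVL7 and 0 for ELOVL1 to ELOVL5.

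**Figure D2:**
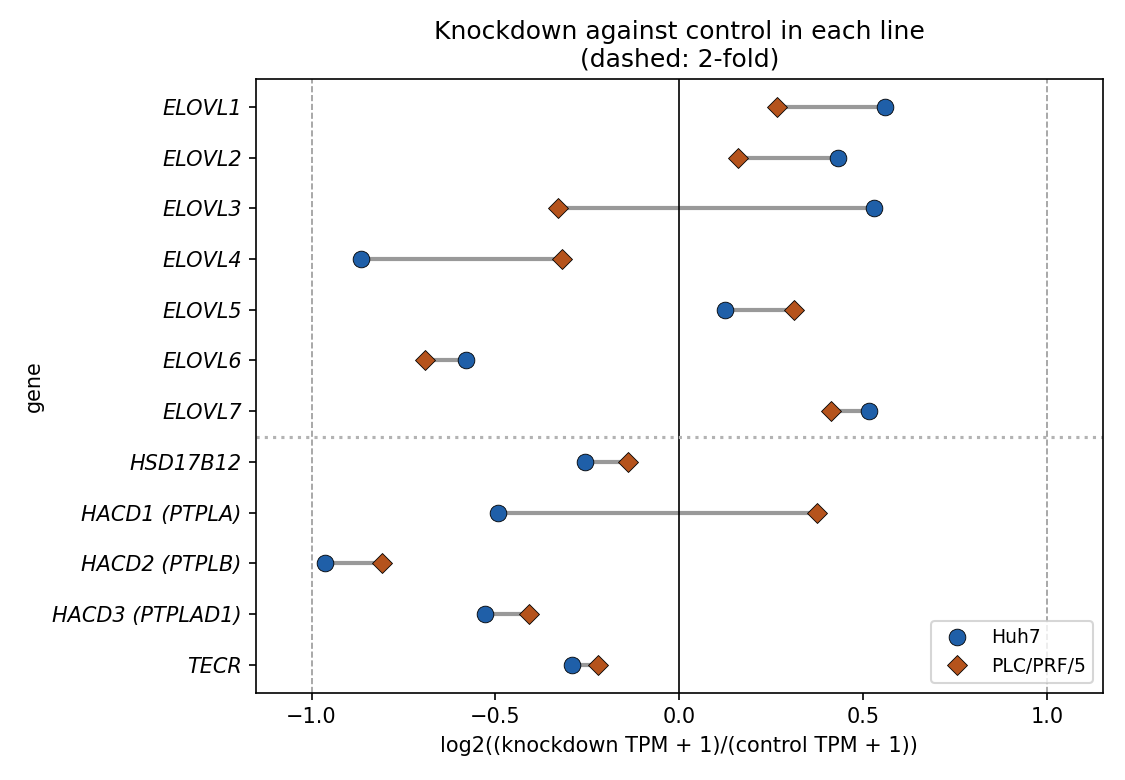
Log2 fold change of knockdown against control, on the log2(TPM + 1) scale, in Huh7 (circles) and PLC/PRF/5 (diamonds) for the elongases (above the dotted line) and the shared enzymes of the cycle with the HACD genes (below it). ELOVL3 and HACD1 are the genes whose symbols fall on opposite sides of 0, and none lies beyond the dashed 2-fold lines.

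Across both lines, 0 of the 9 members passed limma with Benjamini-Hochberg adjustment at 0.05, where 1 of 13813 genes (0.00724%) did. At an unadjusted p under 0.05 there were 6 of the 9 members, ELOVL1, ELOVL2 and ELOVL7 higher and ELOVL4, ELOVL6 and TECR lower, where 18.0% of all genes were under it. The median of the members' mean log2 fold changes was 0.10, near the 0.09 of all genes of the fit, since members stood on both sides. The median of their absolute sizes was 0.29, against 0.19 for all genes. The fit has 1 residual degree of freedom and borrows variance from other genes through a prior of 3.71 degrees of freedom. Its p-values and standard errors thus depend partly on how alike the 2 lines moved and partly on other genes. They do not measure a spread over replicate cultures. ELOVL7 had a larger standard error than ELOVL1 (0.15 and 0.11), although its lines lay closer (gaps of -0.10 and -0.29). Nothing in the labels states that the cultures were handled in separate experiments.

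Promoter sequences are shown for ELOVL6 and TECR, which were lower in both knockdown libraries, and for ELOVL1 and ELOVL5, which were higher in both. Each is the 250 bases before the annotated start, 5′ to 3′ on the gene's strand, from RefSeq on GRCh38.p14. Capitals mark the NF-Y box CCAAT and the E-box CACGTG on either strand. The windows are chr4:110198616-110198865 (minus strand) for ELOVL6, chr19:14529344-14529593 (plus strand, the first of 2 listed starts) for TECR, chr1:43368012-43368261 (minus strand) for ELOVL1 and chr6:53348951-53349200 (minus strand) for ELOVL5.
ELOVL6: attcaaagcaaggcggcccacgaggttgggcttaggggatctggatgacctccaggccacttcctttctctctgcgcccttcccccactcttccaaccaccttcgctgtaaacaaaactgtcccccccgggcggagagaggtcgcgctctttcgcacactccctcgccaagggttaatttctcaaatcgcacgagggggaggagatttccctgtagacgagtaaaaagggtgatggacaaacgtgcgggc
TECR: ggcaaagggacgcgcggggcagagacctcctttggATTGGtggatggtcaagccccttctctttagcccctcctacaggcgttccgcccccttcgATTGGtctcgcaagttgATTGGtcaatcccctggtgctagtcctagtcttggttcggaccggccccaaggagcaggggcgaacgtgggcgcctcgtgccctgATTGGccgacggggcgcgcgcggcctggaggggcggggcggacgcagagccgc
ELOVL1: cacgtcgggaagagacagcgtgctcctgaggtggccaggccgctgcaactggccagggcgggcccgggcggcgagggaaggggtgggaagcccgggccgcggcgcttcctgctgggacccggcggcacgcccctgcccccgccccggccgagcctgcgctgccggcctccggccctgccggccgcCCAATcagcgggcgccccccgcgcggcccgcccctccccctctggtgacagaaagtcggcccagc
ELOVL5: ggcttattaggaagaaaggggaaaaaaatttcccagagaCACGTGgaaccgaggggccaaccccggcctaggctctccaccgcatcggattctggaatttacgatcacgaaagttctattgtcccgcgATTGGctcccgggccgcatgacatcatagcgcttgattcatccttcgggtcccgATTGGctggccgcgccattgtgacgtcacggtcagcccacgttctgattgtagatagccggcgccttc

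The NF-Y box binds a factor that often works beside SREBP proteins at lipogenic promoters. CCAAT was found 0 times in the ELOVL6 window, 4 times in that of TECR, once in that of ELOVL1 and 2 times in that of ELOVL5. It was also found 2 times each in the windows of ELOVL3 and ELOVL4, and 0 times in those of ELOVL2 and ELOVL7. Of all 35116 RefSeq windows of this length, 32.0% hold it. The E-box CACGTG, a core of sites for basic helix-loop-helix factors, was found once in the ELOVL5 and once in the ELOVL4 window, where 6.34% of windows hold it. The sterol response element, searched as TCACNCCAC and held by 0.883% of windows, was found in no window of the 8 members with a listed promoter. It was found 0 times in the window of SCD, a known SREBP1 target, so its absence from a window says little about SREBP1. The GC box GGGCGG, held by 42.6% of windows, was found in those of ELOVL1, ELOVL2, ELOVL3, ELOVL4, ELOVL6, ELOVL7 and TECR but not in that of ELOVL5. The motifs were searched on both strands. A GC box shares bases with CCAAT in the ELOVL1 window, and GC boxes share bases with each other in that of TECR. GC content was 57.2% for ELOVL6 and 56.0% for ELOVL5, near the median of 58.0% of all windows, and 79.6% for ELOVL1 and 66.8% for TECR. A match of letters is a description of the window and says nothing of binding, and the member without a listed promoter is HSD17B12.

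ELOVL6 made up a smaller share of the elongase transcripts in the knockdown library of each line. ELOVL1, ELOVL2 and ELOVL5 together made up 82.5% of the summed ELOVL1 to ELOVL7 level in the Huh7 control and 89.1% in its knockdown, and 86.8% and 90.6% in PLC/PRF/5. The summed level was 409 and 492 TPM in Huh7 and 504 and 575 TPM in PLC/PRF/5. Of this sum ELOVL6 held 13.4% against 7.37% in Huh7 and 6.79% against 3.62% in PLC/PRF/5. The ELOVL1 share was 27.1% against 33.3% in Huh7, a difference in points as large as that of ELOVL6, and 26.0% against 27.4% in PLC/PRF/5. There were 2.03 ELOVL1 transcripts per ELOVL6 transcript in the Huh7 control and 4.52 in the knockdown, and 3.82 and 7.57 in PLC/PRF/5. The share of ELOVL5 went in opposite directions, with 29.4% against 26.6% in Huh7 but 33.2% against 36.2% in PLC/PRF/5. These shares describe single libraries and have no replicate check.

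**Figure D3:**
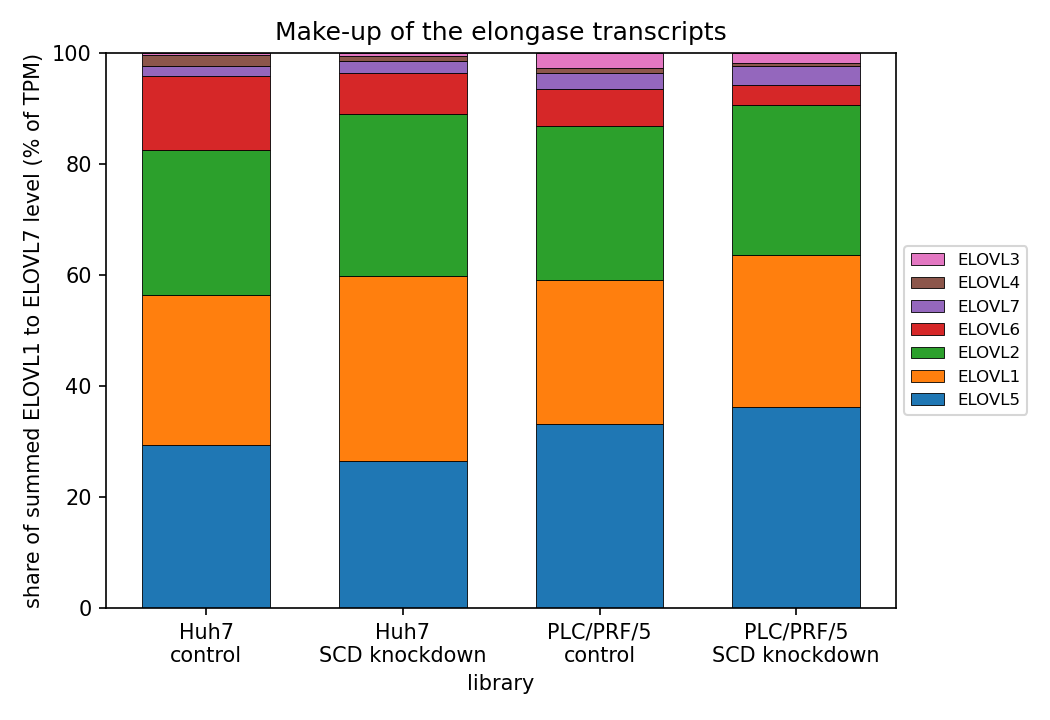
Share of each elongase gene in the summed TPM of ELOVL1 to ELOVL7, as stacked bars that add up to 100% in each of the 4 libraries. The ELOVL6 segment is 13.4% and 7.37% in the Huh7 control and knockdown and 6.79% and 3.62% in PLC/PRF/5, while ELOVL1, ELOVL2 and ELOVL5 fill over 80% of every bar.

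The next comparison was between the lines. PLC/PRF/5 libraries had higher ELOVL3, ELOVL5, ELOVL7 and HSD17B12 and lower ELOVL6 than Huh7 libraries, in both arms. These 5 of 9 members passed in limma, 4 higher and 1 lower in PLC/PRF/5. Of all genes 59.8% passed, 31.5% higher and 28.3% lower in PLC/PRF/5, so the share of members called was no higher than that of genes at large. ELOVL3 was 8.88-fold higher in the PLC/PRF/5 control than in the Huh7 control and 4.01-fold higher between the knockdown libraries. Its mean log2 difference was 2.10 with a standard error of 0.26 (adjusted p = 0.00295 in limma), and it was the 1 member past 2-fold, where 30.7% of genes were past it in each arm.

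ELOVL6 was lower in PLC/PRF/5, by 37.4% between the controls and 42.6% between the knockdown libraries, with a mean log2 difference of -0.72 (standard error 0.11, adjusted p = 0.00578). ELOVL5 and HSD17B12 were higher there, with mean log2 differences of 0.57 (standard error 0.09, adjusted p = 0.00661) and 0.61 (standard error 0.09, adjusted p = 0.0044), all in limma. For ELOVL7 the mean log2 difference was 0.85 with a standard error of 0.15 (adjusted p = 0.00803). Without the arm term in the model, ELOVL6 and ELOVL7 no longer passed (adjusted p = 0.122 and 0.0561), since the knockdown difference then enters the residual. Without a filter on low genes 0 of all genes passed, and so no member did. The adjusted p in that limma fit ran from 0.077 for ELOVL6 to 0.136 for ELOVL3 among these 5.

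ELOVL1, ELOVL2, ELOVL4 and TECR did not pass between the lines. TECR was the closest, with mean log2 difference -0.04 (standard error 0.08, adjusted p = 0.70 in limma), and its level in the 2 knockdown libraries was 220.4 and 219.9 TPM. ELOVL1 was 17.9% higher in the PLC/PRF/5 control and 3.93% lower in the PLC/PRF/5 knockdown library. ELOVL2 had a mean log2 difference of 0.25 (adjusted p = 0.0994) and ELOVL4 of -0.54 (adjusted p = 0.0876). These p-values use the same residual as the knockdown comparison and do not measure variation between cultures of a line.

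**Figure D4:**
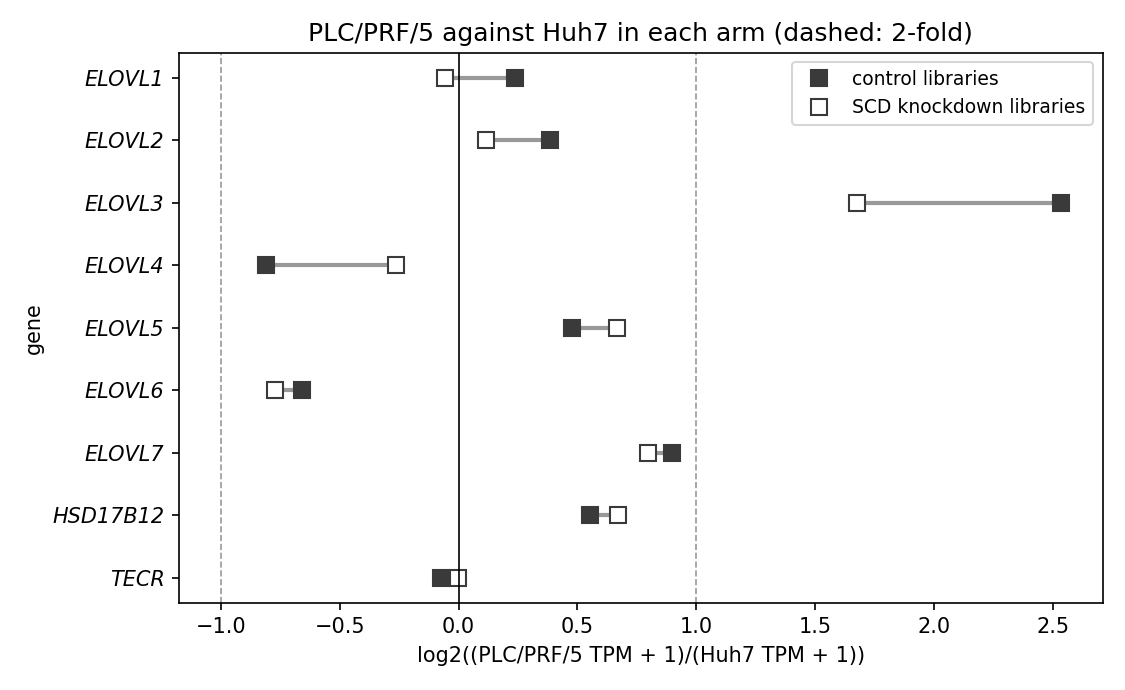
Log2 ratio of PLC/PRF/5 to Huh7 on the log2(TPM + 1) scale for each of the 9 genes, between the control libraries (filled squares) and between the SCD knockdown libraries (open squares). ELOVL3 lies beyond the dashed 2-fold line in both arms (2.53 and 1.67), ELOVL6 lies left of 0 in both (-0.66 and -0.77), and TECR lies next to 0.

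The remaining step of the cycle, the dehydration, is run by the HACD proteins, whose genes carry their older PTPL symbols in the files. PTPLB (HACD2) was at 148 against 75.5 TPM in Huh7 and at 101 against 57.1 TPM in PLC/PRF/5. PTPLAD1 (HACD3) was at 287 against 199 TPM in Huh7 and at 213 against 159.9 TPM in PLC/PRF/5. Both genes were lower in the knockdown of each line, with mean log2 fold changes of -0.89 (standard error 0.10) and -0.47 (standard error 0.09), and neither passed in limma (adjusted p = 0.129 and 0.159). PTPLA (HACD1), known from muscle, was at 2.35 against 1.38 TPM in Huh7 and at 19.0 against 24.9 TPM in PLC/PRF/5. PTPLAD2 (HACD4) and the TECR-like gene TECRL were listed at 0 in all libraries. Of the 5 genes in this list, 3 were in the fit and 0 passed in either direction for the knockdown. In limma 2 were under an unadjusted p of 0.05, both lower, where 18.0% of all genes were under it.

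The listed desaturases include SCD, FADS1 and FADS2, which work on the same acids as the elongases. Beside SCD, FADS2 was at 1147 against 517 TPM in Huh7 and at 15.9 against 9.67 TPM in PLC/PRF/5, and FADS1 at 294 against 168 TPM and 205 against 161 TPM. FADS2 and FADS1 introduce double bonds into the polyunsaturated acids that ELOVL5 and ELOVL2 lengthen, and both genes were lower where ELOVL5 and ELOVL2 were higher. DEGS1, the ceramide desaturase gene, was slightly higher, with log2 fold changes of 0.29 and 0.25. Of 6 desaturase genes in the fit, 0 passed for the knockdown in limma. Of these 6, 3 were lower in each line, 1 was higher in each and 2 had opposite signs. An unadjusted p under 0.05 in limma was found for 4, SCD, FADS1, FADS2 and DEGS1, where 18.0% of all genes were under it. The silenced gene SCD is among these 4 and among the 3 lower in each line. Its lower level was set by the design. SCD and FADS2 passed the 2-fold size in Huh7 and SCD in PLC/PRF/5.

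Genes that supply malonyl-CoA and palmitate had no common direction. Of 9, 7 had opposite signs in the lines, 1 was higher in each and 1 lower in each. In limma 0 passed and 1 was under an unadjusted p of 0.05, where 18.0% of all genes were under it. Log2 fold changes in Huh7 and PLC/PRF/5 were -0.35 and 0.31 for FASN, -0.13 and 0.21 for ACACA and -0.15 and 0.19 for ACLY. OXSM had the same signs as these genes, and ACACB, SLC25A1 and MCAT had the reverse. MLYCD, which breaks malonyl-CoA down, was lower in both, at 9.86 against 4.90 TPM in Huh7 and at 11.4 against 5.80 TPM in PLC/PRF/5. The malic enzyme gene ME1 had log2 fold changes of 0.08 and 0.15, the mitochondrial citrate carrier gene SLC25A1 of 0.02 and -0.32, and the mitochondrial malonyltransferase gene MCAT of 0.49 and -0.04. After scaling by median ratios, 0 of the 9 were higher in both, 4 were lower in both and 5 were opposite.

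Acyl-CoA synthetases activate fatty acids before elongation, and ceramide synthases use the products. SLC27A2, a very long chain acyl-CoA synthetase, was at 3.71 against 8.14 TPM in Huh7 and at 15.3 against 26.2 TPM in PLC/PRF/5, higher in both. ACSL3 had log2 fold changes of -0.76 and 0.02, SLC27A1 of -0.33 and -0.14 and SLC27A3 of 0.31 and 0.21. Of 9 synthetases in the fit 0 passed in limma, and 1 was under an unadjusted p of 0.05, where 18.0% of all genes were under it. CERS2, which makes ceramides with very long chains such as those that ELOVL1 produces, was at 313 against 548 TPM in Huh7 and at 332 against 401 TPM in PLC/PRF/5. CERS2 and ELOVL1 were thus both higher in both knockdown libraries, with CERS2 log2 fold changes of 0.81 and 0.27. CERS1 (-0.53 and -0.44) and CERS5 (-0.29 and -0.30) were lower in both, and CERS4 had values of 0.04 and -0.49. Of 5 ceramide synthases in the fit, 0 passed in limma (CERS2 adjusted p = 0.207). An unadjusted p under 0.05 was found for 2, beside the 18.0% of all genes.

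Peroxisomal oxidation, which shortens very long chains, and the transcription factors of lipogenesis gave 0 passing genes of 10 and 12 in the fit. In each list 2 were under an unadjusted p of 0.05 in limma, where 18.0% of all genes were under it. The peroxisomal thiolase gene ACAA1 was at 109 against 229.6 TPM in Huh7 and at 34.2 against 53.4 TPM in PLC/PRF/5, higher in both. Log2 fold changes were 0.33 and 0.06 for the racemase gene AMACR and -0.37 and -1.55 for the branched-chain oxidase gene ACOX2. SREBF1, whose product SREBP1 is a known activator of ELOVL6 and SCD, was at 61.1 against 49.6 TPM in Huh7 and at 67.9 against 77.7 TPM in PLC/PRF/5. The SREBP1 protein was not measured, and any part of SREBP1 in the ELOVL6 difference was not tested. SREBF1 was chosen after its values were seen. The sterol-sensing genes INSIG1 (-0.38 and 1.40), INSIG2 (-0.43 and -0.20) and SCAP (0.32 and 0.36) and the nuclear receptor gene PPARG (0.93 and 0.28) had the largest mean sizes of that list. The median of the mean log2 fold changes was -0.47 for the dehydratase list, -0.24 for the desaturases and -0.22 for the ceramide synthases. It was -0.01 for malonyl-CoA and palmitate supply and for the acyl-CoA synthetases, 0.10 for peroxisomal oxidation and 0.08 for the transcription factors, beside 0.09 for all genes of the fit. The desaturase list holds the silenced gene SCD (mean -3.15), which the design lowers. Its other means were -0.91 for FADS2, -0.58 for FADS1, 0.095 for SCD5, 0.15 for FADS3 and 0.27 for DEGS1.

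For members that spanned at least 1 log2 unit over the 4 libraries, the genes with the most alike pattern were sought, by the Euclidean distance of log2(TPM + 1) centred on each gene's mean over the libraries. For ELOVL6 they were RMND5A (distance 0.05), SLC23A2 (0.06) and ACVR1B (0.13). RMND5A was at 52.2 against 34.6 TPM in Huh7 and at 31.4 against 19.8 TPM in PLC/PRF/5. For ELOVL7 they were RAB9A (0.04) and ITPRIPL2 (0.06), for ELOVL3 EIF5A2 (0.13), EEF1A2 (0.14) and ATOH8 (0.15), and for ELOVL4 GTF2H2C (0.08), HIST1H2AL (0.11) and SOX13 (0.11). Within a distance of 0.5 there were 300 genes for ELOVL6, 1544 for ELOVL7, 171 for ELOVL3 and 321 for ELOVL4, so a close match over 4 points was common. The other 5 members spanned less than 1 unit, from 0.30 for TECR to 0.81 for HSD17B12.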

How the data were processed

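The authors deposited 1 table per library with TPM by gene symbol, rounded to 2 decimals, per the file headers. Reads were processed with cutadapt and RSEM 1.2.21 on hg19, per the submitters' processing notes; for the aligner, the annotation and strandedness nothing is stated (not given in the sources used here). The model of RSEM divides shared reads between the genes of its annotation. It is unknown whether the genes that share sequence with TECR and HSD17B12 were in that annotation. TPM sets every library to the same total, and its depth is unknown, so no counting interval was computed. Groups came from the sample titles, with 1 library each.

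Log2 fold changes were computed here as log2((TPM + 1)/(TPM + 1)), which understates changes of low genes. Within a pair, genes with at least 1 TPM in either library were counted at 2-fold, with no test. The difference common to both lines, and that between lines, came from a limma fit (version 3.58.1, R 4.3.3) with line and arm as terms and a variance trend. Its input was log2(TPM + 1) of 13813 genes with at least 1 TPM in at least 2 libraries. The script was tested on simulated data with planted changes far larger than the knockdown changes of the members. That test does not speak to changes of the members' size. P-values are two-sided and were adjusted by Benjamini-Hochberg over all genes, with a threshold of 0.05. Alternatives were pseudocounts of 0.1 and 5, a filter of 5 TPM or none, median-ratio scaling, no variance trend, and leaving out the line or arm term. The members and lists were chosen with earlier results of these data known. Genes named were the 9 members, SCD and SCD5, the 4 genes per pathway list with the largest absolute mean knockdown change and any list gene past 2-fold or passing, and the 3 nearest patterns. A mean over the lines is small for genes with opposite signs, so ACLY, ACACA, FASN, OXSM and ACACB were added after their values were seen. Some genes that this rule names are left out of the text. Shared words and overlaps were computed from GENCODE 29 transcripts and promoters from RefSeq, both on GRCh38, with Python 3.11.15; protein sequences were not used here, so the planned protein identities were not computed. Marker lists served to check the cell type.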

Additional observations from a re-analysis of the deposited data

Results flagged for a closer look

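The knockdown difference of ELOVL3 had opposite signs in the lines, with a log2 fold change of 0.53 in Huh7 (control 1.55 TPM, knockdown 2.68 TPM) and -0.33 in PLC/PRF/5 (13.8 TPM, then 10.8 TPM). With 1 library per group this difference between lines was not tested.

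Of the genes on the pathway lists that the report names, others also had opposite signs, likewise not tested, and the lists hold further such genes not named here; each log2 fold change is given for Huh7 and then for PLC/PRF/5. The named genes were PTPLA (-0.49 and 0.37), SLC25A1 (0.018 and -0.32), MCAT (0.49 and -0.039), ACSL3 (-0.76 and 0.024), CERS4 (0.036 and -0.49), INSIG1 (-0.38 and 1.40), SCD5 (-0.22 and 0.42) and SREBF1 (-0.30 and 0.19). Further named genes were FASN (-0.35 and 0.31), ACACA (-0.13 and 0.21), ACLY (-0.15 and 0.19), OXSM (-0.16 and 0.091) and ACACB (0.038 and -0.050).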

How the results depend on the processing

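The knockdown comparison called only 0 to 2 of all genes under any alternative, so a count of 0 members says little. It called 0 members under all 7 alternatives. Across them the adjusted p of ELOVL6 ran from 0.128 to 1, and its mean log2 fold change from -0.73 to -0.57. One mean changed sign, that of ELOVL3, which was -0.011 with a pseudocount of 5 TPM. In Huh7, 1 member passed 2-fold with a pseudocount of 0.1 TPM, ELOVL4 at -1.0, and 0 did otherwise. Between the lines, 5 members passed in the main analysis, 0 without a filter and 3 without the arm term. Of all genes, 8260 passed in the main analysis, 0 without a filter and 6512 without the arm term. The loss without a filter was thus one of the whole fit, and its cause was not tested. Of 232 values of single members under an alternative that could move them, 223 kept their direction and their side of the threshold. Median-ratio scaling turned the sign of no member, and the median knockdown log2 fold change of all genes, 0.07 in Huh7 and 0.09 in PLC/PRF/5, became 0.00068 and 0 with it. With a filter of 5 TPM, ELOVL4 left the fit, ELOVL3 had no value in the Huh7 pair and ELOVL4 none in the PLC/PRF/5 pair or between the knockdown libraries. Leaving out a library was not possible, since 3 libraries leave no residual degree of freedom. No paired analysis was possible because the labels give no replicate number, apart from the pairing by cell line, which is already in the fit. The unknown depth limits what can be said of ELOVL3 and ELOVL4, the least abundant members.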
